A study of Homo sapiens with 6 samples.

Results

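The peaks described here lie on sequences of the human assembly that are not part of chromosomes 1 to 22, X, Y or the mitochondrial genome. These sequences are of 3 kinds. Unlocalized sequences are assigned to a chromosome without a position (names ending in _random), unplaced sequences are assigned to no chromosome (names starting with chrUn), and alternate sequences are other versions of a chromosomal region (names ending in _alt). Every peak of the 4 deposited lists with such a sequence name was taken, and no measured value entered the choice. They came to 372 of 1743 peaks, against 1369 on chromosomes 1 to 22, X and Y, and the others are mitochondrial.

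The study mapped the DNA sites of 2 Flag-tagged proteins in 293T cells, an established human embryonic kidney line. Cells were transfected with Flag-RBMX or Flag-RPA1, all of them were kept in camptothecin, an inhibitor of topoisomerase I, for 24 hours, and the DNA bound to the tagged protein was pulled down on Flag beads and sequenced. There were 6 samples, 4 precipitations (2 per protein) and 2 inputs, and the inputs were not analysed here as libraries of their own. The tagged proteins came from transfection, no group was left without camptothecin, and the labels do not state whether replicate 2 was a separate culture.

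RBMX, also called hnRNP G, binds RNA and takes part in splicing and in the response to DNA damage. RPA1 is the largest part of replication protein A (RPA), which covers single-stranded DNA during replication and repair. Unlocalized and unplaced sequences of the human assembly are rich in satellite repeats, segmental duplications and ribosomal DNA, which are hard to assemble and are present in many near-identical copies. The 45S ribosomal RNA gene, transcribed by RNA polymerase I, is repeated in tandem on the short arms of the acrocentric chromosomes, and its units are separated by a long intergenic spacer.

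The lists were made in different ways, which sets what can be compared. After filtering, replicate 1 had 20199680 tags for RBMX and 20089972 for RPA1, of 50 bp, and replicate 2 had 6664290 and 6889249, of 150 bp. Replicate 1 peaks passed a p-value cutoff of 1e-05 against a local background of the precipitated library, and replicate 2 peaks passed 1e-12 against a background that did not vary along the genome. Fold enrichment is the authors' value relative to each list's own background, so folds and ranks are comparable within a list and not between replicate numbers. The processing and the replicate number cannot be told apart. The callers set no peak against the input reads at its own site, and the copy number of these sequences in 293T cells and the uniqueness of reads on them were not analysed here. A sequence without a peak in a list had no peak past that list's cutoff, and nothing more.

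In replicate 1, 29 of 258 RBMX peaks lay on these sequences, a share of 11.2% (95% interval 7.66 to 15.7, exact Clopper-Pearson). For RPA1 it was 26 of 360 peaks, or 7.22% (4.77 to 10.4). In replicate 2 the share was 27.8% for RBMX (166 of 598 peaks, 24.2 to 31.5) and 28.7% for RPA1 (151 of 527 peaks, 24.8 to 32.7). The shares were therefore higher in replicate 2 for both proteins, while the intervals of RBMX and RPA1 overlapped within each replicate. Intervals here and below cover counting error only, and peaks of 1 sequence share their source and are not replicates of one another.

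The replicate 1 shares were higher at a stricter cutoff, but with wide intervals. Among replicate 1 peaks past a p-value of 1e-12, 20.4% of RBMX peaks (10 of 49, 10.2 to 34.3) were on these sequences. For RPA1 it was 16.7% (10 of 60, 8.29 to 28.5). Both intervals overlapped those of the whole lists.

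The peaks covered 30045 bp in the RBMX list of replicate 1 and 26616 bp in its RPA1 list. In replicate 2 they covered 76716 bp for RBMX and 75551 bp for RPA1. Covered bases were thus 1.13 times as many for RBMX as for RPA1 in replicate 1 and 1.02 times in replicate 2. Peaks were narrow in replicate 2, with a median width of 337.5 bp for RBMX and 365 bp for RPA1, and wider in replicate 1, at 704 and 905.5 bp.

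Fold enrichment stood differently against the chromosomes in the replicates. In replicate 1 the median fold was 9.62 for RBMX and 9.70 for RPA1 on these sequences, against 5.91 and 6.05 on the chromosomes. The replicate 2 medians were 15.65 for RBMX and 15.91 for RPA1, against 18.91 and 17.43 on the chromosomes. Without the pair of sequences that carry the 45S genes, they were 20.21 and 19.7. The chromosome medians kept every peak, including any on 45S units within the chromosomes, so they are no like counterpart to these values. The peaks of largest fold in every list were on chromosomes: the maximum was 18.6 on these sequences and 46.1 on the chromosomes in the RBMX list of replicate 1, and 114.6 and 260.4 in that of replicate 2.

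Peaks fell on 37 sequences, 19 of them in replicate 1 and 30 in replicate 2. A replicate 1 name without a match was counted as a sequence of its own. The replicate 1 sequences comprised 9 unlocalized and 8 unplaced ones and 2 whose names were not matched, NT_187574.1 and NW_009646209.1. Those of replicate 2 comprised 8 unlocalized, 19 unplaced and 3 alternate ones. By peaks, replicate 2 had 70 RBMX and 65 RPA1 peaks on unlocalized sequences, 84 and 78 on unplaced and 12 and 8 on alternate ones. In replicate 1 the numbers were 12 and 11 on unlocalized sequences, 14 and 13 on unplaced ones and 3 and 2 on the unmatched ones.

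**Figure D1:**
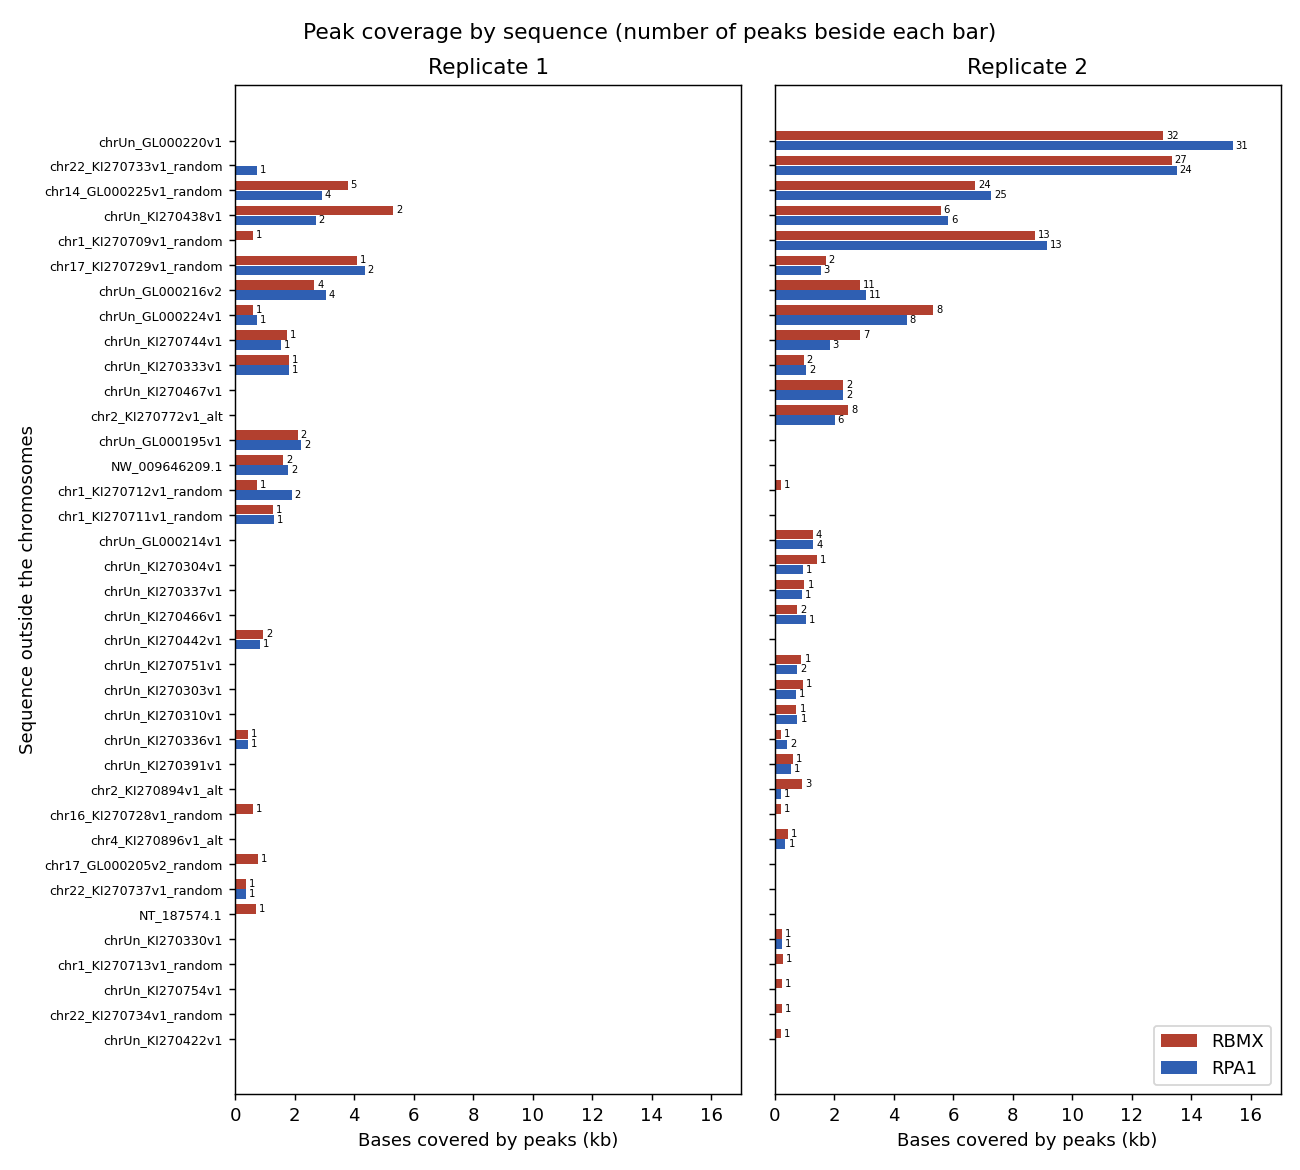
Bases covered by peaks (kb, horizontal axis) on each of the 37 sequences (vertical axis), with replicate 1 on the left and replicate 2 on the right; red bars are RBMX, blue bars are RPA1, and the number beside a bar is its count of peaks. The longest bars are those of replicate 2 on chrUn_GL000220v1 (13.0 kb for RBMX and 15.4 kb for RPA1) and chr22_KI270733v1_random (13.3 and 13.5 kb), where replicate 1 had no RBMX peak.

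The sequences with most covered bases in replicate 2 were the pair that carry 45S ribosomal RNA genes, chrUn_GL000220v1 and chr22_KI270733v1_random. On chrUn_GL000220v1 there were 32 RBMX and 31 RPA1 peaks, and on chr22_KI270733v1_random there were 27 and 24. Together they held 59 of the 166 RBMX peaks and 55 of the 151 RPA1 peaks. Their folds were low among the replicate 2 peaks, with a median of 13.05 for RBMX and 12.88 for RPA1. Replicate 1 had no RBMX peak on either sequence and 1 RPA1 peak, at chr22_KI270733v1_random:148604-149318 (21 tags, fold 7.39).

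RefSeq gives the 45S gene RNA45SN5 at positions 105424 to 118780 (13357 bp), here taken as chrUn_GL000220v1, and RNA45SN4 at 122273 to 135645 (13373 bp), taken as chr22_KI270733v1_random. In both, the 18S, 5.8S and 28S genes follow one another in the direction of increasing position. A second 18S copy, annotated as a pseudogene, lies 43972 bp further on in chrUn_GL000220v1 and 45081 bp further on in chr22_KI270733v1_random, which gives the length of the repeat unit. Peaks were therefore placed by their distance from the start of the 45S gene in the first copy, or from the matching position in the second. The second copies carried peaks up to distances of 10663 to 10818 bp.

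Both the transcribed gene and the spacer carried peaks, in unlike proportions on the 2 sequences. On chrUn_GL000220v1, peaks covered 16.9% of the 45S gene for RBMX and 21.0% for RPA1, and 23.4% and 30.1% of the spacer. On chr22_KI270733v1_random they covered 34.6% of the gene for RBMX and 35.3% for RPA1, but 12.7% and 12.8% of the spacer. The order of gene and spacer was thus opposite on the 2 sequences, and for each sequence it was the same for both proteins. How reads that match several copies were placed is not given in the sources used here, so the copies are not independent of one another.

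The peak of largest fold of each protein on each sequence lay at or beyond the end of the gene. On chr22_KI270733v1_random RBMX had peaks at 12712 to 12982 bp (fold 22.2) and 13197 to 13853 bp (fold 32.6) from the 45S start, around the end of the 28S gene and of the 45S gene. RPA1 had 1 peak there, from 12335 to 13901 bp (fold 39.7). On chrUn_GL000220v1 the largest peaks were further into the spacer, at 14329 to 14801 bp for RBMX (fold 26.7) and 14119 to 15057 bp for RPA1 (fold 29.6). The next in size on that sequence were again at a common place, at 36573 to 36831 bp for RBMX (fold 19.56) and 36523 to 36824 bp for RPA1 (fold 22.48).

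Some peaks within the gene lay before the 18S gene, in the external transcribed spacer that is removed from the precursor. On chr22_KI270733v1_random the peak at 2717 to 3054 bp had a fold of 30.0 for RBMX, and RPA1 had one at 2715 to 3020 bp with a fold of 24.0. Each was the largest of its protein on that sequence after the peak at the gene end (fold 32.6 for RBMX, 39.7 for RPA1). Peaks in the 3000 bp before the 45S start were present for both proteins in both copies on both sequences. Their folds were 11.75 to 13.7 for RBMX and 9.34 to 13.89 for RPA1. On chrUn_GL000220v1 the RPA1 peaks among them lay at -821 to -613 bp in the first copy and -853 to -568 bp in the second. Other RPA1 peaks there spanned the start, at -128 to 606 and -329 to 351 bp (fold 10.35 in each copy), and were counted with the gene. The gene for 18S rRNA was sparsely covered: RNA18SN5 had no RBMX peak and 1 RPA1 peak (fold 13.9), and RNA18SN4 had 1 RBMX peak (fold 9.1) and no RPA1 peak. No peak of either protein overlapped the 5.8S genes RNA5-8SN5 or RNA5-8SN4. The 28S gene RNA28SN5 had 1 peak of each protein (folds 15.0 and 11.9), and RNA28SN4 had 1106 bp under RBMX peaks and 1336 bp under RPA1 peaks.

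Peaks of the first copy recurred in the second, over a reach that ended with the last second-copy peak of each protein. That reach was thus set by the peaks themselves and not by the end of the sequence. On chrUn_GL000220v1, 6 of the 6 RBMX peaks within reach of the second copy had a second-copy peak at the same distance, and 5 of 7 RPA1 peaks did. On chr22_KI270733v1_random the numbers were 9 of 10 and 6 of 6. Between the first copies of the 2 sequences and over the same reach, 5 of 6 RBMX peaks and 5 of 7 RPA1 peaks of chrUn_GL000220v1 had a peak at the same distance on chr22_KI270733v1_random. In the other direction 4 of 10 RBMX and 4 of 6 RPA1 peaks did. Over the whole unit, spacer included, 7 of 24 RBMX peaks and 9 of 24 RPA1 peaks of chrUn_GL000220v1 had such a counterpart. From chr22_KI270733v1_random it was 6 of 20 RBMX and 8 of 17 RPA1 peaks. The number that would coincide by position alone was not computed. Distances were compared by overlap of at least 1 bp, and no shift was allowed for the different unit lengths.

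**Figure D2:**
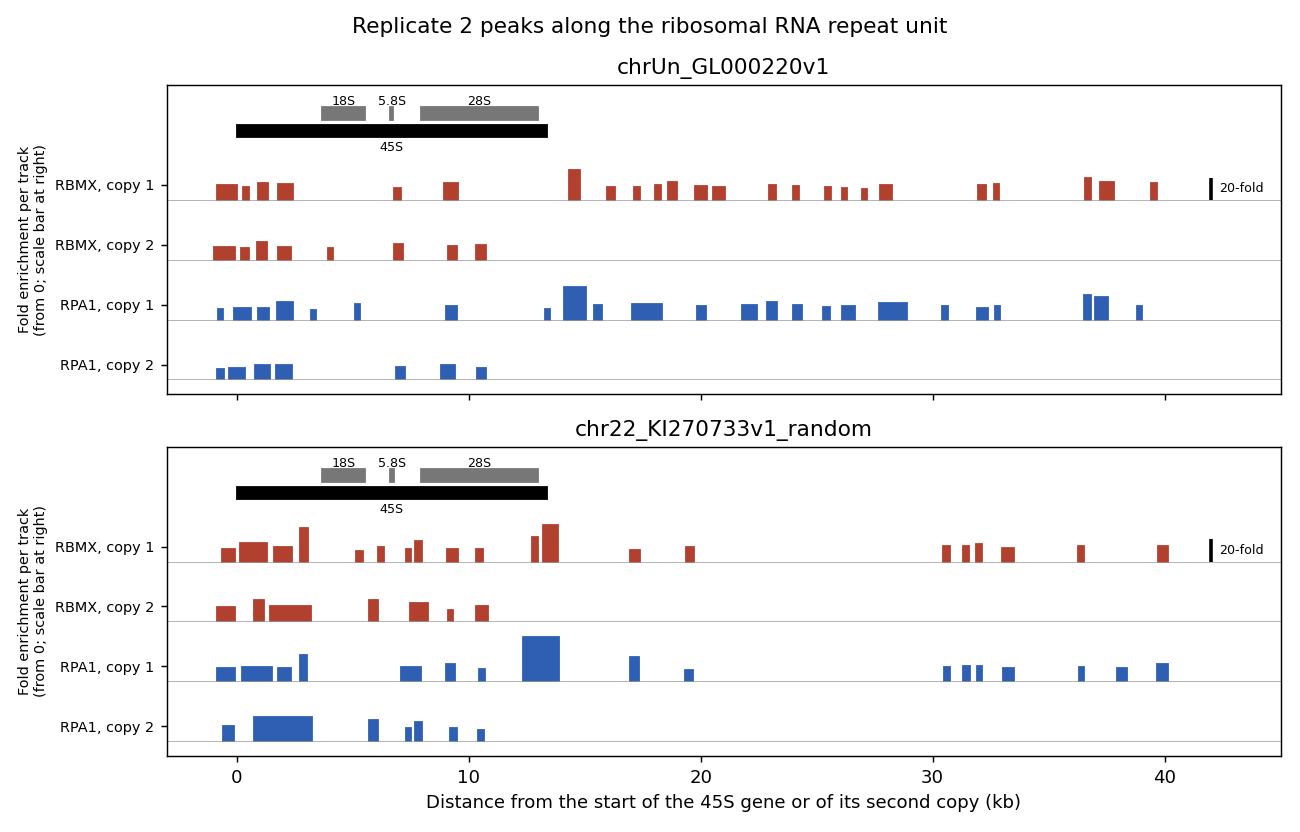
Replicate 2 peaks on the sequences with 45S ribosomal RNA genes, by distance from the 45S start (kb, horizontal axis); each row is 1 protein and 1 copy of the unit, block height is fold enrichment from 0 on a common scale, given by the bar at the right, and the black and grey bars are the 45S, 18S, 5.8S and 28S genes. The tallest blocks lie at the end of the gene on chr22_KI270733v1_random (32.6 for RBMX, 39.7 for RPA1) and just beyond it on chrUn_GL000220v1 (26.7 and 29.6), and the second-copy rows end at 10663 to 10818 bp.

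Outside the 45S sequences, the peaks of largest fold in replicate 2 were on 5 sequences in the RBMX list. The largest was at chrUn_KI270310v1:429-1155 for RBMX, with 175 tags at the summit and a fold of 114.6, and RPA1 had a peak at 409 to 1168 of the same sequence with 187 tags and a fold of 95.3. It was the peak of rank 20 of 598 by fold in the RBMX list and of rank 24 of 527 in the RPA1 list. chrUn_KI270303v1 likewise carried a single peak per list, at 893 to 1829 for RBMX (154 tags, fold 100.9) and 1127 to 1832 for RPA1 (164 tags, fold 83.7). Replicate 1 had no peak on either of these sequences.

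On chrUn_KI270438v1 the peaks lay within a stretch of a few kilobases and were found in all 4 lists. In replicate 2 each protein had 6 peaks, all shared, which covered 5.58 kb for RBMX and 5.83 kb for RPA1. The largest ran from 109147 to 110706 for RBMX (165 tags, fold 108.1) and from 109113 to 110715 for RPA1 (209 tags, fold 106.4). In replicate 1 the 2 peaks of this sequence held the most tags of any on these sequences, 265 and 266 for RBMX and 181 and 198 for RPA1, while their RBMX folds were 6.57 and 8.89 and their RPA1 folds 7.11 and 7.97. The sequence therefore ranked high in replicate 2 by fold and in replicate 1 by tags.

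On chr1_KI270709v1_random, both proteins had 13 peaks in replicate 2, and all of them were shared. They reached from 32 to 17485 for RBMX and from 44 to 17505 for RPA1, with a median fold of 37.8 and 36.6. The largest, at 6579 to 8603 for RBMX (147 tags), had a fold of 96.4, and the RPA1 peak at 6563 to 8650 (162 tags) one of 82.6. In replicate 1 the sequence had 1 RBMX peak, at 7364 to 7942 inside that largest one (18 tags, fold 10.7), and no RPA1 peak.

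chr14_GL000225v1_random had most peaks outside the 45S sequences, 24 for RBMX and 25 for RPA1 in replicate 2. They were narrow and scattered between 6722 and 135115, with a median spacing of 3377 bp for RBMX, and 23 and 22 of them were shared. The largest folds were 56.0 for RBMX (67241 to 67670, 85 tags) and 52.8 for RPA1 (25504 to 25800, 103 tags). In replicate 1 there were 5 RBMX and 4 RPA1 peaks, and all 9 of them overlapped a replicate 2 peak of the same protein. The replicate 1 peak at 50443 to 51457 had the largest fold of all peaks on these sequences in its list, 18.6 for RBMX (45 tags, rank 11 of 258), and its RPA1 counterpart at 50443 to 51311 did so too, at 16.3 (38 tags, rank 16 of 360).

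chrUn_GL000216v2 showed other positions in each replicate. In replicate 2 it had 11 peaks of each protein, of which 10 and 10 were shared, and the first began at 142348 for RBMX and 142377 for RPA1. The largest lay at 149412 to 149833 for RBMX (158 tags, fold 103.5) and 149396 to 149845 for RPA1 (157 tags, fold 80.1). In replicate 1 it had 4 peaks of each protein, among them peaks near its start, at 3 to 1210 for RBMX (57 tags, fold 12.7) and 29 to 1031 for RPA1 (60 tags, fold 13.3). An RPA1 peak at 5633 to 6671 (30 tags, fold 16.1) had no RBMX peak on it and had the largest fold of the unshared RPA1 peaks on these sequences in replicate 1. Of these 8 replicate 1 peaks, 1 RBMX peak overlapped a replicate 2 peak of the same protein.

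**Figure D3:**
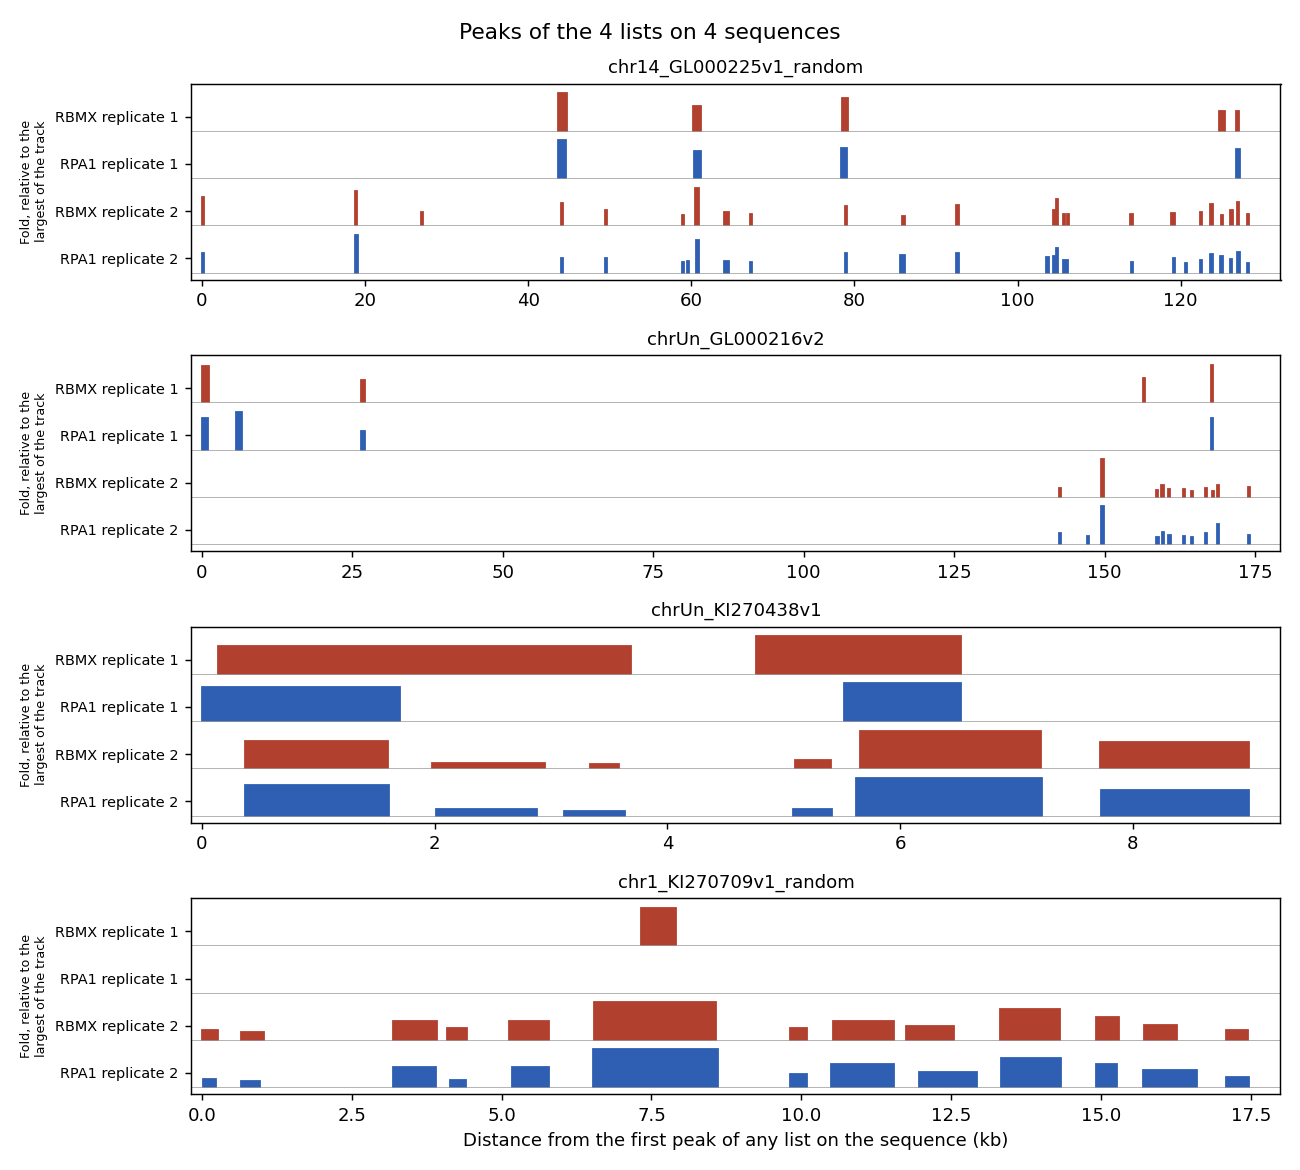
Peaks of the 4 lists on chr14_GL000225v1_random, chrUn_GL000216v2, chrUn_KI270438v1 and chr1_KI270709v1_random, by distance from the first peak of any list (kb, horizontal axis); block height is fold relative to the largest of its own track, so heights are not comparable between tracks. On chr1_KI270709v1_random 13 of 13 replicate 2 peaks of each protein were shared, while replicate 1 had 1 RBMX and no RPA1 peak there, and on chrUn_GL000216v2 1 of the 8 replicate 1 peaks overlapped a replicate 2 peak of the same protein.

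Among the other sequences, NW_009646209.1 carried 2 peaks of each protein in replicate 1, the larger at 1980 to 3123 for RBMX (146 tags, fold 15.7) and 1976 to 3126 for RPA1 (150 tags, fold 13.7). Its name was not matched to the replicate 2 names, so its place in that replicate is not known. On chr17_KI270729v1_random replicate 1 had wide peaks of low fold, at 1988 to 6088 for RBMX (195 tags, fold 5.00), and replicate 2 had 2 RBMX and 3 RPA1 peaks inside the same stretch, with folds up to 25.4 and 20.5. chrUn_GL000224v1 had 8 peaks of each protein in replicate 2, of which 6 and 6 were shared, with median folds of 15.3 and 12.9. chr2_KI270772v1_alt, an alternate sequence, had 8 RBMX and 6 RPA1 peaks in replicate 2, with folds from 11.7 to 18.9 and from 8.8 to 15.9.

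The next comparison asked how far the peaks of RBMX and RPA1 coincided, since the title of the series places both proteins on repetitive DNA. In replicate 1, 21 of 29 RBMX peaks on these sequences overlapped an RPA1 peak by at least 1 bp, or 72.4% (52.8 to 87.3), where 41.5% of all RBMX peaks of the list did. In the other direction 22 of 26 RPA1 peaks were shared, or 84.6% (65.1 to 95.6), where 30.3% of all did. Peaks on the chromosomes were shared in 37.6% of cases for RBMX (86 of 229, 31.3 to 44.2) and 26.0% for RPA1 (87 of 334, 21.4 to 31.1). The intervals of these sequences and of the chromosomes thus did not overlap in replicate 1.

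In replicate 2, 138 of 166 RBMX peaks were shared, or 83.1% (76.6 to 88.5), where 76.3% of all RBMX peaks were. For RPA1 it was 134 of 151, or 88.7% (82.6 to 93.3), where 87.5% of all were. Both shares were close to those of the whole list, and the intervals overlapped those of the chromosomes, which were 73.5% for RBMX (317 of 431, 69.1 to 77.7) and 86.9% for RPA1 (326 of 375, 83.1 to 90.2).

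The gap in replicate 1 was smaller among stronger peaks. Past a p-value of 1e-12, 10 of 10 RBMX and 10 of 10 RPA1 peaks on these sequences overlapped a peak of the other protein's whole list (69.2 to 100 for each). On the chromosomes it was 33 of 39 (84.6%, 69.5 to 94.1) and 44 of 50 (88.0%, 75.7 to 95.5). When the other list was held to the same threshold, 9 of 10 RBMX and 9 of 10 RPA1 peaks on these sequences were shared (90%, 55.5 to 99.7), against 31 of 39 (79.5%, 63.5 to 90.7) and 32 of 50 (64.0%, 49.2 to 77.1) on the chromosomes. The intervals overlapped in each of these comparisons, and with 10 peaks per list on these sequences they were wide. Unshared peaks had lower folds at the median in each list. In replicate 1 the median fold of shared and unshared peaks was 10.02 and 9.02 for RBMX and 10.51 and 8.60 for RPA1. Those unshared medians rest on 8 RBMX and 4 RPA1 peaks, and the unshared RPA1 folds reached 16.1. The replicate 2 values were 16.95 and 12.72 for RBMX and 16.92 and 12.37 for RPA1. On these sequences no unshared replicate 2 peak exceeded a fold of 19.6 for RBMX or 21.98 for RPA1, and both of those were on chr14_GL000225v1_random, at 33617 to 33828 and 110254 to 110525. On the chromosomes the largest unshared peaks had folds of 144.6 and 26.0.

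By sequence, 24 of the 30 replicate 2 sequences carried both proteins, 6 carried RBMX alone and none carried RPA1 alone. Each of the 6 had a single RBMX peak of 16 to 21 tags at the summit and a fold of 11.1 to 14.4, which is low in that list. In replicate 1, 14 of the 19 sequences carried both proteins, 4 RBMX alone and 1 RPA1 alone.

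Overlapping peaks had folds of similar size. In replicate 1 there were 22 overlapping pairs on these sequences, and the median ratio of RBMX to RPA1 fold was 1.01 (range 0.71 to 1.42), with RBMX higher in 11 and RPA1 in 11. In replicate 2 there were 143 pairs with a median ratio of 1.10 (0.48 to 1.97), and 134 of them were within 1.5 times of each other. The chromosomes gave nearly the same medians, 0.99 over 88 pairs and 1.12 over 338 pairs, but with a wider range in replicate 2, from 0.18 to 6.72. Because each list has its own background, a ratio above 1 shared by all parts of the genome is no difference between the proteins.

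The ratio differed between kinds of sequence in replicate 2. The 53 pairs on the 45S sequences had a median ratio of 1.01 (RBMX higher in 27, RPA1 in 26), and the other 90 pairs had 1.14 (71 and 19). The 53 pairs came from 50 RBMX and 47 RPA1 peaks, because a peak that overlapped several peaks entered several pairs. Only pairs with both peaks past the cutoff entered the ratio, and folds on the 45S sequences were low in these lists. Summits lay closer together off the 45S sequences, at a median distance of 25.5 bp against 115 bp. The folds of pairs were correlated on the log scale, as a description across peaks that share libraries and sequences, with Pearson's r of 0.94 over the 22 pairs of replicate 1 and 0.92 over the 143 of replicate 2. On the 45S sequences, where folds spanned a narrow range, it was 0.72.

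chrUn_KI270744v1 was singled out after its values were seen, as the sequence with several pairs where RPA1 was higher in each. In replicate 2 its 3 pairs had RBMX folds of 31.9, 18.9 and 15.0 and RPA1 folds of 42.7, 27.5 and 21.0, a ratio of 0.69 to 0.75. Their summit tags summed to 98 for RBMX and 176 for RPA1, which the choice of the sequence fixed in direction. This sequence also had 4 RBMX peaks without RPA1, with folds from 11.1 to 14.4. In replicate 1 its single pair, at another position, had folds of 4.69 and 5.04.

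**Figure D4:**
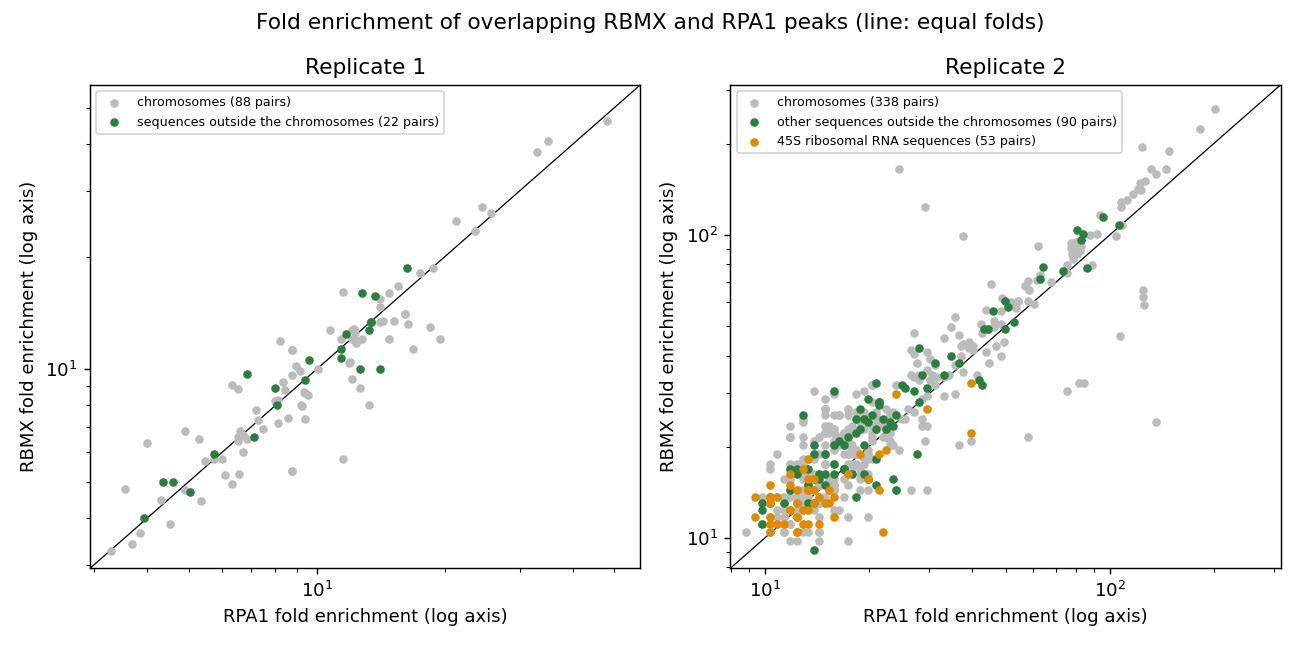
Fold enrichment of overlapping peaks, RPA1 on the horizontal and RBMX on the vertical axis (both log axes), with replicate 1 on the left and replicate 2 on the right; a point is 1 pair, grey on the chromosomes, green on the sequences outside them and orange on the 45S sequences, and the line marks equal folds. The 22 green pairs of replicate 1 lie about the line, and in replicate 2 the 53 orange pairs lie about it while 71 of the 90 green ones lie above it.

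The same positions were then compared between replicates. In replicate 1, 13 of 29 RBMX peaks on these sequences overlapped a replicate 2 peak of RBMX, or 44.8% (26.4 to 64.3), where 27.9% of all peaks of the list did. For RPA1 it was 11 of 26, or 42.3% (23.4 to 63.1), where 16.9% of all did. The 3 RBMX and 2 RPA1 peaks on sequences with unmatched names were counted as having no counterpart. Seen from replicate 2, 18 of 166 RBMX peaks (10.8%, 6.55 to 16.6) had a replicate 1 counterpart, where 15.9% of all did, and 13 of 151 RPA1 peaks (8.61%, 4.66 to 14.3), where 15.0% of all did. The lists are of unequal length, so the shares from the 2 sides need not be equal. On the 45S sequences 0 of 59 RBMX and 0 of 55 RPA1 peaks of replicate 2 had a replicate 1 counterpart. Replicate 1 had no RBMX peak and 1 RPA1 peak there, so there was almost nothing to overlap. On the other sequences 16.8% of RBMX peaks did (18 of 107, 10.3 to 25.3), and 13.5% of RPA1 peaks (13 of 96, 7.41 to 22). On the chromosomes, 25.8% of replicate 1 and 17.9% of replicate 2 RBMX peaks had a counterpart, and 15.0% and 17.6% of RPA1 peaks.

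Of the sequences, as far as names were matched, 12 carried peaks in both replicates, 7 in replicate 1 alone and 18 in replicate 2 alone. The 7 include the 2 with unmatched names, whose place in replicate 2 is not known. On 10 of the 12, a replicate 1 and a replicate 2 peak of either protein overlapped, and the others were chr22_KI270733v1_random and chrUn_KI270744v1. Among the 10, chr1_KI270712v1_random had only an RPA1 peak of replicate 1 over an RBMX peak of replicate 2. All 4 lists had peaks on 8 sequences. Merging the peaks of all lists gave 187 regions. All 4 lists held 9 of them, 3 lists held 4, 2 lists held 125 and 1 list held 49. Of the 125, 113 combined the 2 proteins within replicate 2 and 10 combined them within replicate 1.

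The 9 regions held by all 4 lists were on 5 sequences. On chr14_GL000225v1_random there were 4 of them, and the largest by replicate 2 fold, 66986 to 67970, had folds of 12.4 and 11.7 in replicate 1 and 56.0 and 45.7 in replicate 2 (RBMX first). The one at 50443 to 51457 had 18.6, 16.3, 32.6 and 21.0 in the same order. On chrUn_KI270438v1 there were 2, at 103495 to 107185 (6.6, 7.1, 77.5 and 85.7) and 108259 to 110715 (8.9, 8.0, 108.1 and 106.4). The other 3 were 1590 to 6088 on chr17_KI270729v1_random, 3340 to 4985 on chrUn_GL000224v1 and 2 to 1805 on chrUn_KI270333v1. The region that ranked first of the 9 by fold in replicate 1, 50443 to 51457 on chr14_GL000225v1_random, was not the first in replicate 2, which was 108259 to 110715 on chrUn_KI270438v1.

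Some of the peaks began at the edge of their sequence. A start within 100 bp of the first base was found for 3 RBMX and 4 RPA1 peaks of replicate 1 and for 2 peaks of each protein in replicate 2. One of these sequences was chrUn_KI270333v1, where the replicate 1 peaks ran from 7 to 1804 and from 2 to 1805. A peak that starts at the edge may be cut short there, so its width is a lower limit.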

How the data were processed

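Flag chromatin immunoprecipitation was followed by sequencing in 4 precipitations of 293T cells, each with 1 peak list. The build was hg38 (GRCh38), and Bowtie2, MACS, MACS2 2.2.4 and deepTools 3.4.1 were used, per the submitters' processing notes. Per the file headers, MACS 1.4.2 made the replicate 1 lists with no control and a local background of up to 10000 bp, and MACS2 2.2.4 made those of replicate 2 with inputs of 6393212 (RBMX) and 4693961 (RPA1) tags and the local background off. Tags were extended to 200 bp. The deposited counts are whole tags in a replicate 1 peak. The deposited score of replicate 1 is −log10 of the p-value times 10, and it was divided back. The deposited signal of replicate 2 is the pileup at the summit, scaled by the authors, which returned whole tags within 0.02 for 100% of summits. For replicate 2 the authors deposited the caller's −log10 p-values and −log10 q-values, and the deposited fold is a ratio to the background.

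Overlaps, coverage and intervals were computed in Python 3.11.15 (SciPy 1.17.1, NumPy 2.4.6, pandas 2.3.3), and matplotlib 3.10.9 drew the figures. The overlap functions were tested on simulated data. An overlap needed at least 1 bp in common. Replicate 1 names are RefSeq accessions and replicate 2 names are in UCSC form. They were paired from the known naming of the assembly, which the files do not give, for 17 of 19 replicate 1 sequences. Ribosomal RNA gene positions come from a RefSeq table of GRCh38.p14, which names no scaffold for them, and the scaffold was assigned from knowledge of the assembly. Other genes on these sequences and the sequences' lengths and letters were not used here. Replicate number 1 was given in accession order. Intervals are exact Clopper-Pearson intervals at 95%. No test was run. Sequences to describe were taken from the up to 10 with most covered bases per list and from those in all 4 lists. Those with the 5 peaks of largest fold per list were added. Not every sequence of these groups is described. The genes named are ribosomal RNA genes of the 45S sequences. The alternatives tried were stricter thresholds, a stricter overlap, covered bases, peaks above the median fold, each replicate left out and the 45S sequences left out. The peaks and the lists described were chosen with earlier results of these data known.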

Additional observations from a re-analysis of the deposited data

How the results depend on the processing

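Of 42 values recomputed under an alternative, 26 stayed within their counting interval or 1.5 times the count, and 16 moved. With peaks at or above the median fold of their list, the share on these sequences became 18.6% for RBMX and 11.1% for RPA1 in replicate 1 and 21.9% for RBMX in replicate 2, and sharing in replicate 2 became 98.5% for RBMX and 98.6% for RPA1. Past a p-value of 1e-12, the replicate 1 shares were 20.4% and 16.7%, with intervals that overlapped those of the whole lists. With that threshold in both lists RBMX sharing in replicate 1 was 90%, against 79.5% on the chromosomes. With 1e-20 in both lists RBMX sharing in replicate 2 was 74.1%, against 70.1% on the chromosomes. When 50% of both peaks had to be shared, sharing in replicate 2 was 66.9% for RBMX and 73.5% for RPA1. Sharing on the chromosomes was not computed for the median fold and 50% settings, so those values have no counterpart. By covered bases, the RBMX share in replicate 2 was 24%. Without the 45S sequences, an alternative chosen after seeing the data, the replicate 2 shares were 19.9% and 20.3%. Any peaks on 45S units within the chromosomes stayed in the total. The 37 sequences became 19 to 30 when a replicate was left out, and the 8 with peaks in all 4 lists became 5 at the stricter thresholds. Apart from the alternatives that keep fewer peaks or sequences by construction, the cause was not tested. No paired analysis was possible because the labels give only the number 2 and the results come from no test. Replicate 2 had fewer tags and a stricter cutoff than replicate 1, and more peaks on these sequences (166 and 151 against 29 and 26). A weaker peak may have gone undetected in either replicate, and how far detection differed between them was not tested.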
